A study of Ailuropoda melanoleuca with 25 samples.

Results

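TTN, LDB3, and ACTN2, 3 of the 25376 genes in the table, encode the spring and anchor proteins of the muscle sarcomere. They were chosen because the study placed them among the hub genes of the protein-protein interaction (PPI) network of its heart-specific differentially expressed genes (DEGs). That network was built on the same libraries, so the differences of these genes between the heart and the other tissues are described here without a test. Their identifiers are ENSAMEG00000000394 (TTN), ENSAMEG00000009941 (LDB3), and ENSAMEG00000001117 (ACTN2), and their genome positions were not analysed here.

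The sarcomere is the contractile unit of striated muscle. Titin (TTN) is a giant elastic protein that runs from the Z-disc, where thin filaments of neighbouring sarcomeres are tied together, to the M-band in the middle. Alpha-actinin 2 (ACTN2) crosslinks the thin filaments in the Z-disc and binds the end of titin there. LIM domain binding 3 (LDB3, also known as ZASP or Cypher) carries a PDZ and a LIM domain, binds alpha-actinin, and keeps the Z-disc intact under load. All are known from heart and skeletal muscle, and mutations in each cause cardiomyopathy.

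Messenger RNA was sequenced in 5 tissues (heart, liver, kidney, spleen, and lung) of 5 captive giant pandas, with 1 library of each tissue per panda and 25 libraries in all. Panda 1 was a female of 27 years with ovarian cancer. Panda 2 was a female of 9 years whose cause of death is entered as "ileac pssion". Pandas 3 and 4 (female) and panda 5 (male) were 0.5 years old and died of a coronavirus infection, so age and cause of death cannot be told apart. Levels are given as FPKM, the reads on a gene divided by the length of the gene and the total of the library. Between 13149580 and 21383380 reads per library were counted on genes. Marker genes were compared between the tissues. Identifiers came only from the study's tissue-specific DEGs of these same libraries, so this is no independent check of the tissues. All 10 heart muscle markers with an identifier were higher in every heart library than in every library of another tissue, as were 3 of 3 B cell markers in the spleen, 2 of 2 alveolar markers in the lung, 4 of 4 tubule markers in the kidney, and 1 of 2 hepatocyte markers in the liver. The tissues were sampled whole, so fewer muscle cells and less mRNA per muscle cell cannot be told apart in any value below.

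ACTN2 was the highest of these genes per length in the heart. Its FPKM was 1310 in panda 1, 1699 in panda 2, 1060 in panda 3, 1666 in panda 4, and 882 in panda 5, a mean of 1323 ± 362 (SD, n = 5). Panda 5 was lowest, and panda 2 was highest by a narrow margin over panda 4. LDB3 had 356, 478, 171, 307, and 218 FPKM in the hearts of pandas 1 to 5 (306 ± 121, SD, n = 5). Panda 2 again was highest, but panda 3 and not panda 5 was lowest. TTN had 69.3, 86.4, 62.4, 66.4, and 39.1 FPKM in pandas 1 to 5 (64.7 ± 17.0, SD, n = 5), with panda 2 highest and panda 5 lowest. The order ACTN2, LDB3, TTN held in each of the 5 hearts, and the ranges of the genes did not overlap.

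The same order does not hold for reads, because titin is so long. The steps between low FPKM values of a gene give its length in the authors' annotation, which was 98565 bases for TTN, the longest gene in the table, 2172 for LDB3, and 2691 for ACTN2, against a median of 1386. Most lengths of genes with an Ensembl identifier (87.4%) were multiples of 3, so they are mainly coding lengths. A coding length of 98565 bases holds 32855 codons, against 724 for LDB3 and 897 for ACTN2. TTN took between 68210 and 130673 reads in a heart library, which was 0.385% to 0.852% of all reads counted on genes. Ranked by reads it stood between place 17 and place 23 in the hearts, while by FPKM it stood between place 1112 and place 1926. ACTN2 took between 42045 and 75127 reads and LDB3 between 6122 and 15941. By reads ACTN2 stood between place 23 and place 34, and LDB3 between place 92 and place 277.

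**Figure D1:**
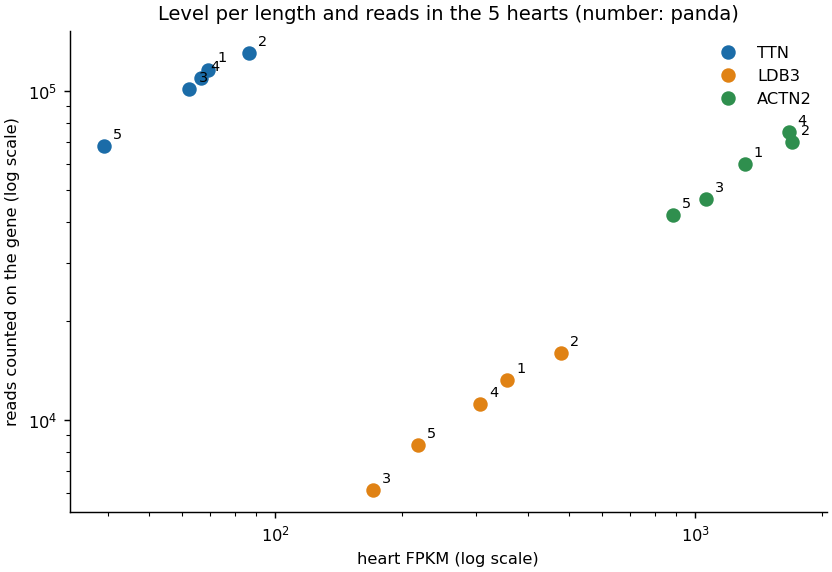
Heart FPKM (horizontal axis, log scale) against reads counted on the gene (vertical axis, log scale) for TTN, LDB3, and ACTN2, with 1 point per panda and its number beside it. TTN lies lowest in FPKM (39.1 to 86.4) and highest in reads (68210 to 130673), whereas ACTN2 is highest in FPKM (882 to 1699).

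The proportions of these mRNAs were close among the hearts. TTN over ACTN2 in FPKM was between 0.0398 and 0.0589 (median 0.0508), so that 1 unit of TTN stood against 17.0 to 25.1 units of ACTN2. LDB3 over ACTN2 was between 0.161 and 0.282 (median 0.248), and LDB3 over TTN between 2.74 and 5.59 (median 5.14). Panda 3, with the lowest LDB3 level, had the lowest of both LDB3 ratios. In the hearts of the older pandas 1 and 2, TTN (69.3 and 86.4 FPKM) and LDB3 (356 and 478 FPKM) were above the young pandas 3 to 5 (at most 66.4 and 307), as were 9.63% of all genes tested. ACTN2 overlapped between these pandas. A split of 5 hearts into 2 and 3 allows no exact two-sided p below 0.1, and no test was made. After division by TMM factors, scaling factors from a trimmed mean of log ratios, TTN of panda 1 (89.4) lay below pandas 3 (95.3) and 4 (105.6). LDB3 of panda 1 (459.6) lay below panda 4 (489), so that these ranges overlapped. The share of all genes higher in pandas 1 and 2 without overlap was then 11.4%. With 10 ways to split 5 hearts into 2 and 3, both shares (9.63% and 11.4%) are near that of a random order.

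Outside the heart TTN was below 1 FPKM in all 20 libraries. It had 0.0174, 0.00201, 0.00600, 0.0204, and 0.0104 FPKM in the livers of pandas 1 to 5, from 32, 4, 11, 32, and 22 reads. In the spleens TTN had 0.177, 0.0785, 0.0493, 0.0793, and 0.118 FPKM, from 66 to 239 reads. The lungs of pandas 1 to 5 held 0.395, 0.195, 0.271, 0.146, and 0.788 FPKM of TTN, from 210 to 1227 reads. Every lung was above its own panda's spleen, and every spleen above every liver, the lung of panda 5 being the highest of all. In the kidneys TTN fell into a high and a low set, with 0.167, 0.149, and 0.146 FPKM in pandas 1, 3, and 5 (230 to 243 reads) and 0.0164 and 0.0156 in pandas 2 and 4 (28 and 25 reads). The exact Poisson 95% intervals of the low kidneys (0.0109 to 0.0237 and 0.0101 to 0.0231) lie below those of the others (0.128 or more), and these intervals cover counting error only. The same 2 kidneys had the lowest TMM factors of the kidneys, 0.905 and 0.835 against 1.23 to 1.52. What part the make-up of these libraries has in their TTN levels was not tested.

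LDB3 was also low outside the heart but reached 1 FPKM in some libraries. In the livers of pandas 1 to 5 it had 0.247, 0.0228, 0, 0.0867, and 0.194 FPKM, from at most 10 reads. The 0 in the liver of panda 3 allows up to 0.0743 FPKM (3 reads). LDB3 had 1.11, 0.650, 0.169, 0.610, and 0.635 FPKM in the spleens and 0.454, 1.26, 0.837, 1.64, and 0.495 in the lungs. Kidney values were 0.988, 0.956, 0.433, 2.95, and 0.846 FPKM in pandas 1 to 5. The spleens, lungs, and kidneys overlapped, and panda 4 stood high in the kidney, with 104 reads against 15 to 36 in the other kidneys. The kidney of panda 4 held the highest LDB3 of any library outside the heart, together with the lowest TTN and the lowest ACTN2 of the 5 kidneys.

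ACTN2 had its highest levels outside the heart in the kidney. Kidney values were 2.82, 1.95, 3.82, 0.550, and 2.996 FPKM in pandas 1 to 5, from 106, 91, 164, 24, and 136 reads. The lungs held 0.367, 0.339, 1.24, 1.02, and 1.11 FPKM and the spleens 0.190, 0.359, 0.684, 0.837, and 0.278. In every panda but panda 4 the kidney was above the lung and the spleen. Livers had 0.0199, 0, 0.120, 0.443, and 0 FPKM of ACTN2, from 26 reads in all 5, of which 19 were in panda 4. The values of 0 in pandas 2 and 5 allow up to 0.0552 and 0.0521 FPKM.

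**Figure D2:**
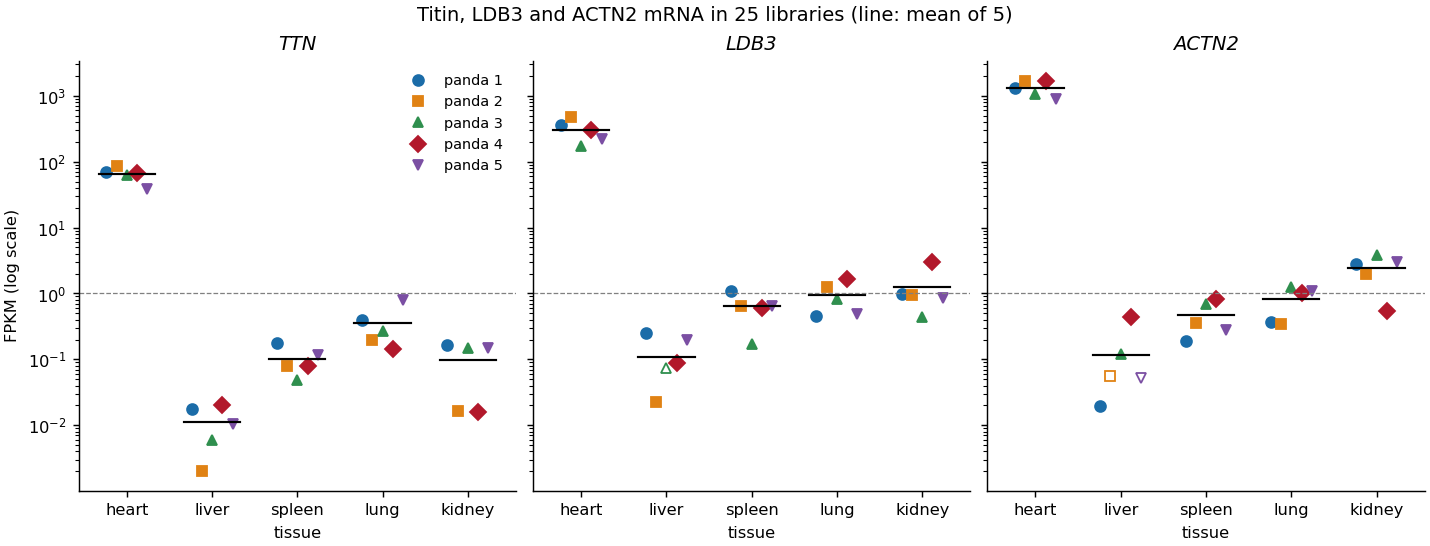
FPKM (log scale) of TTN, LDB3, and ACTN2 in the 25 libraries, by tissue, with 1 symbol per panda and a line at the mean of the 5 libraries. An open symbol stands for 0 reads and is drawn at the 3 reads that a count of 0 allows, and the dashed line marks 1 FPKM. All hearts (39.1 FPKM or more) lie above all other libraries (at most 3.82).

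For each of the 3 genes every heart library exceeded each of the 20 other libraries, as it did for 3.41% of all genes tested. This is the contrast on which the genes were chosen. The mean TTN level in the heart was 5752 times that in the liver, 644 times that in the spleen, 655 times that in the kidney, and 180.3 times that in the lung. ACTN2 was 11347 times higher in the heart than in the liver (37858 times without liver replicate 4, which held 19 of the 26 liver reads), 2819 times than in the spleen, 1625 times than in the lung, and 546 times than in the kidney. LDB3 had ratios of 2783 to the liver, 482 to the spleen, 327 to the lung, and 248 to the kidney. The liver ratios of ACTN2 and LDB3 rest on 26 and 23 liver reads. The lung came nearest to the heart in TTN and the kidney in ACTN2. For LDB3 the nearest tissue depended on 1 library, since without kidney replicate 4 the ratio to the kidney was 380.1 and the lung (327) was nearest.

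On the scale of log2(FPKM + 1), where differences between values near 0 shrink, the heart exceeded the other tissues by 8.65 (SE 0.31, kidney) to 10.18 (SE 0.22, liver) for ACTN2. The difference was between 7.10 (SE 0.33, kidney) and 8.03 (SE 0.27, liver) for LDB3. For TTN it was between 5.57 (SE 0.23, lung) and 5.98 (SE 0.23, liver). The added 1 FPKM flattens the tissues outside the heart most for TTN. With 0.1 FPKM added, TTN differed by 7.25 from the lung and by 9.14 from the liver. Over all genes tested the median difference of the heart was 0.06 from the liver, -0.97 from the spleen, -1.02 from the lung, and -0.61 from the kidney.

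The levels outside the heart were compared with limma in each pair of these tissues. In the 18 comparisons (3 genes in 6 pairs of tissues) 10 had a Benjamini-Hochberg adjusted p below 0.05 over all 18701 genes. Only 6 of the 18 had a mean above 1 FPKM in a tissue compared, and 4 of these were among the 10. The other 12 comparisons entered the fit through the level in the heart. Of the 10, 8 were a lower level in the liver, where most genes differed in the same way. Of all genes, 63.0% were higher in the spleen than in the liver, 63.1% were higher in the lung, and 39.9% were higher in the kidney, and these counts are to be read against that background.

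ACTN2 was higher in the kidney than in the liver by 1.53 (SE 0.28, adjusted p = 0.00226, limma), and no kidney library overlapped with a liver library, as for 27.4% of all genes. It was higher in the kidney than in the spleen by 1.14 (SE 0.29, adjusted p = 0.00744, limma), in 4 of 5 pandas, where 15.9% of all genes tested were higher in the kidney. The exact two-sided permutation p of these differences was 0.00794, the smallest that 5 libraries against 5 allow, for the liver and 0.0238 for the spleen. Both had an adjusted p below 0.05 in each of 8 other ways of processing and without each of the 10 libraries in turn. Over the lung the kidney was higher by 0.85 (SE 0.31, adjusted p = 0.0412, limma) in 4 of 5 pandas, against a background of 12.7%. This last result depended on single libraries. Without lung replicate 1, 2, 4, or 5 the adjusted p was 0.0914, 0.0967, 0.0576, and 0.0535, and without kidney replicate 1, 2, 3, or 5 it was 0.0825, 0.0640, 0.0852, and 0.0895 (limma).

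TTN, which was tested only through its level in the heart, was above the liver by 0.12 in the spleen (SE 0.03, adjusted p = 0.00926, limma) and by 0.41 in the lung (SE 0.11, adjusted p = 0.00598, limma). The difference from the spleen had an adjusted p of 0.116 with TMM factors and 0.575 with all libraries in one fit (limma), and its sign turned with quantile normalization. The difference between the liver and lung had an adjusted p below 0.05 in 6 of 7 other ways of processing and 0.484 with quantile normalization (limma). No liver library overlapped with a spleen or a lung library in TTN, as for 52.8% and 52.1% of all genes. Between the kidney and the liver the difference was 0.12 (SE 0.05, adjusted p = 0.0810, limma), and without the low kidney replicate 2 or 4 the adjusted p was 0.0343 and 0.0292. The difference between the lung and the kidney was 0.29 (SE 0.12, adjusted p = 0.0687, or 0.0399 with the panda as a block, limma), and it was 0.29 between the lung and the spleen (SE 0.11, adjusted p = 0.0815, limma). The lung had more TTN than the kidney in 5 of 5 pandas and more than the spleen in 5 of 5. How many of all genes did so was not counted. Over all genes tested the median difference was 0.36 between the lung and kidney, higher in the lung, and 0.01 between the spleen and lung. With TMM factors the adjusted p of TTN was 0.118 against the kidney and 0.0754 against the spleen (limma). Without lung replicate 4 the adjusted p was 0.0441 and 0.0473 (limma). Spleen and kidney differed by 0.00 (SE 0.06, adjusted p = 0.967, limma), and the spleen was higher in 3 of 5 pandas.

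LDB3 had its lowest mean in the liver. Its comparisons among the liver, spleen, and lung, and those of ACTN2 among these tissues, were tested only through the level in the heart. It was lower in the liver than in the spleen by 0.54 (SE 0.14, adjusted p = 0.00524, limma), than in the lung by 0.77 (SE 0.16, adjusted p = 0.00193, limma), and than in the kidney by 0.92 (SE 0.23, adjusted p = 0.00945, limma). The liver and spleen overlapped, and after scaling by TMM factors the adjusted p was 0.122, 0.0503, and 0.0690 (limma). Among the spleen, lung, and kidney the differences of LDB3 were between 0.15 and 0.38, with SE of 0.20 to 0.27 and adjusted p between 0.232 and 0.671 (limma). ACTN2 was lower in the liver than in the lung by 0.68 (SE 0.17, adjusted p = 0.00525, limma) and than in the spleen by 0.39 (SE 0.14, adjusted p = 0.0307, limma). The difference from the spleen had an adjusted p between 0.0648 and 0.0712 without liver replicate 1, 2, or 5 or spleen replicate 3 or 4. Spleen and lung differed in ACTN2 by 0.29 (SE 0.18, adjusted p = 0.290, limma), and 26.8% of all genes differed between these tissues in either direction.

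In mean level the order outside the heart was thus lung, spleen, kidney, liver for TTN and kidney, lung, spleen, liver for both LDB3 and ACTN2. Without kidney replicate 4 the mean of LDB3 in the kidney fell from 1.23 to 0.806 FPKM, under that of the lung (0.937). No neighbours in the order of TTN had an adjusted p below 0.05 (0.0815, 0.967, and 0.0810, limma). The spleen and lung did not differ beyond their spread for ACTN2, nor did any pair of the spleen, lung, and kidney for LDB3. After scaling by TMM factors 4 of the 18 comparisons had an adjusted p below 0.05 (limma). These were the 3 of ACTN2 with the kidney and that of TTN between the liver and lung (adjusted p = 0.0181). After quantile normalization 3 did, all of ACTN2 with the kidney.

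In the spleen and lung TTN stood higher relative to ACTN2 than in the heart. In the kidneys TTN over ACTN2 in FPKM was between 0.00840 and 0.0592 (median 0.0390), and this range includes the whole range of the hearts (0.0398 to 0.0589). The spleens had between 0.0721 and 0.932 (median 0.218) and the lungs between 0.143 and 1.08 (median 0.576), so that no spleen or lung overlapped with a heart or a kidney. In reads, this was 5.25 to 39.4 reads of TTN for each read of ACTN2 in the lungs, against 1.46 to 2.16 in the hearts. The liver gave a ratio in 3 libraries. Pandas 4 and 3, at 0.0460 and 0.0501, were within the range of the hearts, and panda 1, at 0.874, rests on 1 read of ACTN2.

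The ratio was 13.9 times higher in the lung than in the kidney (log2 difference 3.79), in 5 of 5 pandas (two-sided exact permutation test, p = 0.00794, adjusted p = 0.0357 over 9 ratio comparisons). It was 7.39 times higher in the spleen than in the kidney (log2 difference 2.89), in 5 of 5 pandas, with the same p and adjusted p in that exact permutation test. This test was chosen after the levels of TTN and ACTN2 had been seen, so its p is no independent support for them. The test exchanges libraries freely, although both tissues came from the same pandas. ACTN2 had 7 to 34 reads in a spleen library and 12 to 47 in a lung library. With signs exchanged within pandas the exact two-sided p was 0.0625 in both cases, the smallest that 5 pandas allow, so that test cannot pass 0.05. The scale of a library cancels in a ratio within it. Leaving out each library in turn kept the log2 difference between 3.33 and 4.19 for the lung and between 2.37 and 3.30 for the spleen. Adding 0.1 FPKM to both genes lowered the difference to 5.85 times (log2 2.55) for the lung and 4.42 times (log2 2.14) for the spleen. The other 7 comparisons, of TTN over ACTN2 between the spleen and lung and of LDB3 with either gene, had adjusted p of 0.388 or more (exact permutation test). LDB3 over TTN varied widely in the kidney, where it was between 2.91 and 5.92 in pandas 1, 3, and 5 and reached 58.3 in panda 2 and 189 in panda 4.

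**Figure D3:**
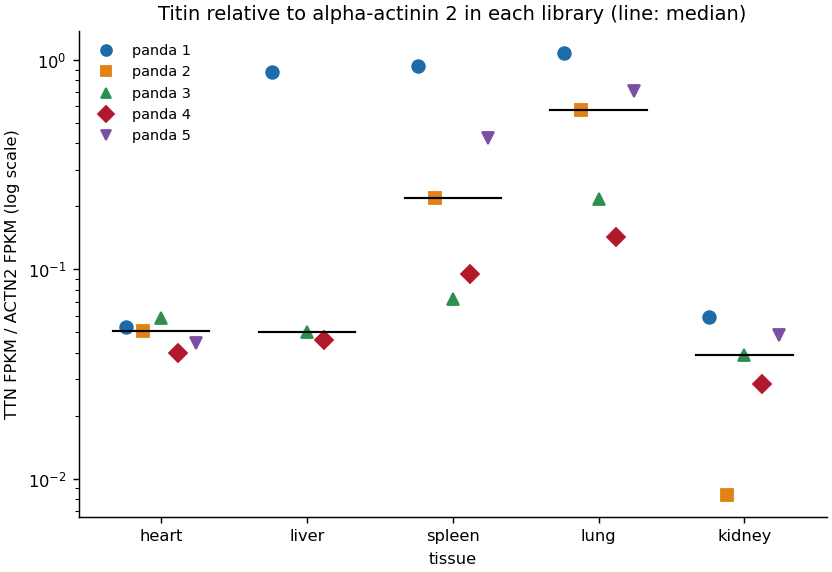
TTN FPKM divided by ACTN2 FPKM (log scale) in each library, by tissue, with 1 symbol per panda and a line at the median. Hearts (0.0398 to 0.0589) and kidneys (0.00840 to 0.0592) lie below all spleens (0.0721 or more) and lungs (0.143 or more), and the livers of pandas 2 and 5, without ACTN2 reads, are not drawn.

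Relative to the heart of the same panda, the 3 mRNAs outside the heart were set beside 10 heart muscle markers (MYL2, MYL3, MYH7, TNNT2, TNNI3, TNNC1, ACTC1, RYR2, PLN, and CKM), all of them also from the heart-specific DEGs of the study. In the lung TTN was between 0.220% and 2.02% of the panda's heart level (median 0.434%), and LDB3 between 0.128% and 0.534%. The median marker was at 0.00892% to 0.0648% there, and TTN and LDB3 were above it in 5 of 5 pandas. In the lung of panda 5 TTN (2.02%) was above each of the 10 markers, of which the highest was at 0.850%. Spleens had 0.0790% to 0.303% of the heart level of TTN and 0.0991% to 0.311% of LDB3, against a marker median of 0.00392% to 0.0620%. In each spleen 2 to 4 of the 10 markers were above TTN.

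ACTN2 was at 0.0330% to 0.360% of the heart in the kidneys (median 0.215%) and above the median marker (0.0254% to 0.0940%) in 5 of 5 pandas. In the lung it was lower, at 0.0200% to 0.125%, and in the spleen at 0.0145% to 0.0645%. There too it was above the median marker, in 5 of 5 lungs and 4 of 5 spleens. LDB3 was at 0.200% to 0.961% of the heart in the kidneys and above the median marker in 5 of 5 pandas. Its highest value, in panda 4, was exceeded by 1 of the 10 markers. TTN was above the median marker in the kidneys of pandas 1, 3, and 5 only, and 3 to 7 of the 10 markers were above TTN in each kidney.

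In some of these libraries, but in no lung, defining markers of heart muscle had no read. MYL2, TNNC1, and ACTC1 (3 of the 10) were at 0 in the spleen of panda 1, where TTN had 239 reads, LDB3 33, and ACTN2 7. The highest of the 10 was at 5.15% of its heart level there, and in the other spleens no marker was at 0. TNNC1 and ACTC1 were at 0 in the kidney of panda 1, where TTN had 230 reads and ACTN2 106. The liver of panda 1 had 5 markers at 0 (MYL2, MYH7, TNNC1, ACTC1, and RYR2), with 32 reads of TTN, 10 of LDB3, and 1 of ACTN2. ACTC1 was also at 0 in the livers of pandas 2 and 5 and the kidney of panda 4. In the livers of pandas 3 and 4 no marker was at 0, and each of the 10 was at a larger share of its heart level than TTN, LDB3, or ACTN2, at 0.0116% to 0.0527% in panda 3 and 0.0335% to 0.136% in panda 4. The summed level of the 10 markers was 93174 to 112981 FPKM in the hearts, 133 to 242 in spleens, 64.4 to 126 in kidneys, 29.4 to 109 in lungs, and 3.43 to 39.0 in livers. PLN alone, with a mean of 145 FPKM in the spleen, made up 79.8% of the mean sum there, and 49.2% in the lung. The marker of smooth muscle with an identifier, MYH11, had 39.4 to 101 FPKM in spleens, 25.9 to 64.8 in lungs, 8.04 to 23.9 in kidneys, 7.92 to 17.9 in hearts, and 0.127 to 1.91 in livers. What part smooth muscle or heart muscle RNA has in the levels outside the heart was not tested, and the skeletal muscle list had no gene with an identifier.

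**Figure D4:**
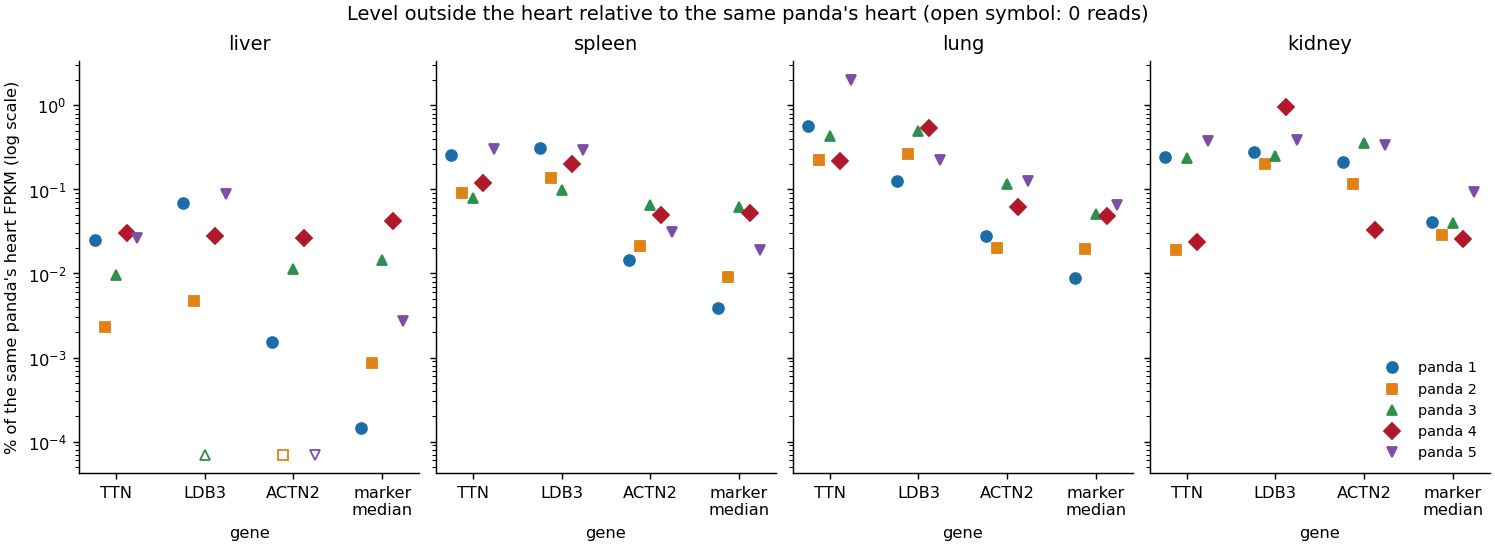
FPKM outside the heart as a percentage of the same panda's heart FPKM (log scale) for TTN, LDB3, ACTN2, and the median of 10 heart muscle markers, with 1 panel per tissue and 1 symbol per panda. Open symbols at the lower edge stand for 0 reads. TTN and LDB3 lie above the marker median in all 5 spleens and lungs, and LDB3 in all 5 kidneys, but TTN in 3 kidneys. ACTN2 lies above it in all 5 lungs and kidneys and in 4 spleens. In the livers TTN and LDB3 lie above it in 3 pandas each and ACTN2 in 1.

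Further genes of the Z-disc were taken from a list. Of 24 Z-disc genes listed, 15 were paired with an identifier. All of the 15 came from the heart-specific DEGs of the study. They were thus chosen for a difference between the heart and the other tissues, and the counts are not independent evidence of it. Called higher in the heart (adjusted p below 0.05 and log2 difference above 2, limma) were 15 of 15 against the liver, 14 against the spleen, 15 against the lung, and 15 against the kidney. Over all genes tested the same call was made for 6.31%, 3.34%, 3.0%, and 2.58%. The median difference of the list was 6.36 from the liver, 5.26 from the spleen, 4.87 from the lung, and 5.63 from the kidney.

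Desmin (DES), the intermediate filament that links Z-discs sideways, was the highest of the list at 10743 ± 5063 FPKM in the heart (SD, n = 5). Spleens held 237 ± 130 FPKM of it, lungs 103 ± 44.4, kidneys 21.9 ± 39.2, and livers 1.77 ± 1.03, and its smallest difference was 5.51 (SE 0.49), from the spleen. Alpha B-crystallin (CRYAB), a chaperone of desmin and titin, had 4404 ± 1453 FPKM in the heart and differed least from the lung (4.87, SE 0.39). Telethonin (TCAP), which caps pairs of titin ends in the Z-disc, had 4325 ± 1651 FPKM in the heart and between 0.887 and 10.7 elsewhere in mean. Myozenin 2 (MYOZ2), a binding partner of alpha-actinin, had 3876 ± 1018 FPKM in the heart and at most 2.65 in mean elsewhere. The exception was SORBS2, an adaptor protein of the Z-disc, which was at 80.4 ± 22.7 FPKM in the heart and 21.3 ± 3.04 in the spleen and missed the log2 threshold there (1.83, SE 0.19, adjusted p = 1.63e-05, limma). TTN itself, with 64.7 FPKM, was below each of the 4 highest genes in level per length.

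Proteins that bind or regulate titin made a second list, with 15 of 17 genes paired with an identifier. These too were all from the heart-specific DEGs of the study. Called higher in the heart were 15 of 15 against the liver, 14 against the spleen, 15 against the lung, and 14 against the kidney, with median differences of 6.48, 5.33, 5.43, and 5.45. The same call was made for 6.31%, 3.34%, 3.0%, and 2.58% of all genes. ANKRD1, a stress-responsive repeat protein that binds the elastic part of titin, had 3796 ± 1148 FPKM in the heart. It was at most 1.25 FPKM in mean in the liver, spleen, and kidney but at 54.7 ± 62.1 in the lung, from 3.80 to 129 in single lungs. FHL1, a LIM protein, had 1691 ± 818 FPKM in the heart and was also at 181 ± 53.7 in the lung and 152 ± 17.9 in the spleen. ANKRD23, a relative of ANKRD1, had 616 ± 244 FPKM and MYBPC3, the heart form of myosin-binding protein C, 601 ± 207. OBSL1, a relative of obscurin that joins titin at the M-band, was the exception, at 48.6 ± 27.6 FPKM in the heart, 14.1 ± 6.48 in the spleen, and 18.5 ± 12.2 in the kidney. It missed the log2 threshold against the spleen (1.64, SE 0.40, adjusted p = 0.00391, limma) and the kidney (1.44, SE 0.52, adjusted p = 0.0400, limma).

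LDB3 belongs to the PDZ-LIM family, and its relatives did not share one direction. Of 6 relatives listed 4 were paired with an identifier, 3 of them from the heart-specific DEGs. PDLIM5, also a partner of alpha-actinin, was at 487 ± 122 FPKM in the heart, above LDB3 (306), and was called higher in the heart in all 4 comparisons (3.58 to 4.50). PDLIM1 had 368 ± 74.97 FPKM in the heart and was called against the liver (2.83, SE 0.18) and the kidney (3.33, SE 0.23), but not against the spleen (1.97, SE 0.27) or the lung (1.53, SE 0.28). PDLIM2 was lower in the heart (3.06 ± 1.89 FPKM) than in each other tissue, by -2.38 to -4.81, where such a call was made for 5.44% of all genes against the liver, 16.7% against the spleen, 17.2% against the lung, and 10.4% against the kidney. PDLIM3 was highest in the spleen, with 264 ± 57.8 FPKM against 6.82 ± 2.17 in the heart (-5.10, SE 0.23, adjusted p = 8.41e-08, limma). Its differences from the lung (-0.82) and the kidney (-0.57) turned positive after scaling by TMM factors (0.40 and 0.18) or quantile normalization (0.55 and 0.33). Alpha-actinins other than ACTN2 had no identifier and were not analysed here.

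**Figure D5:**
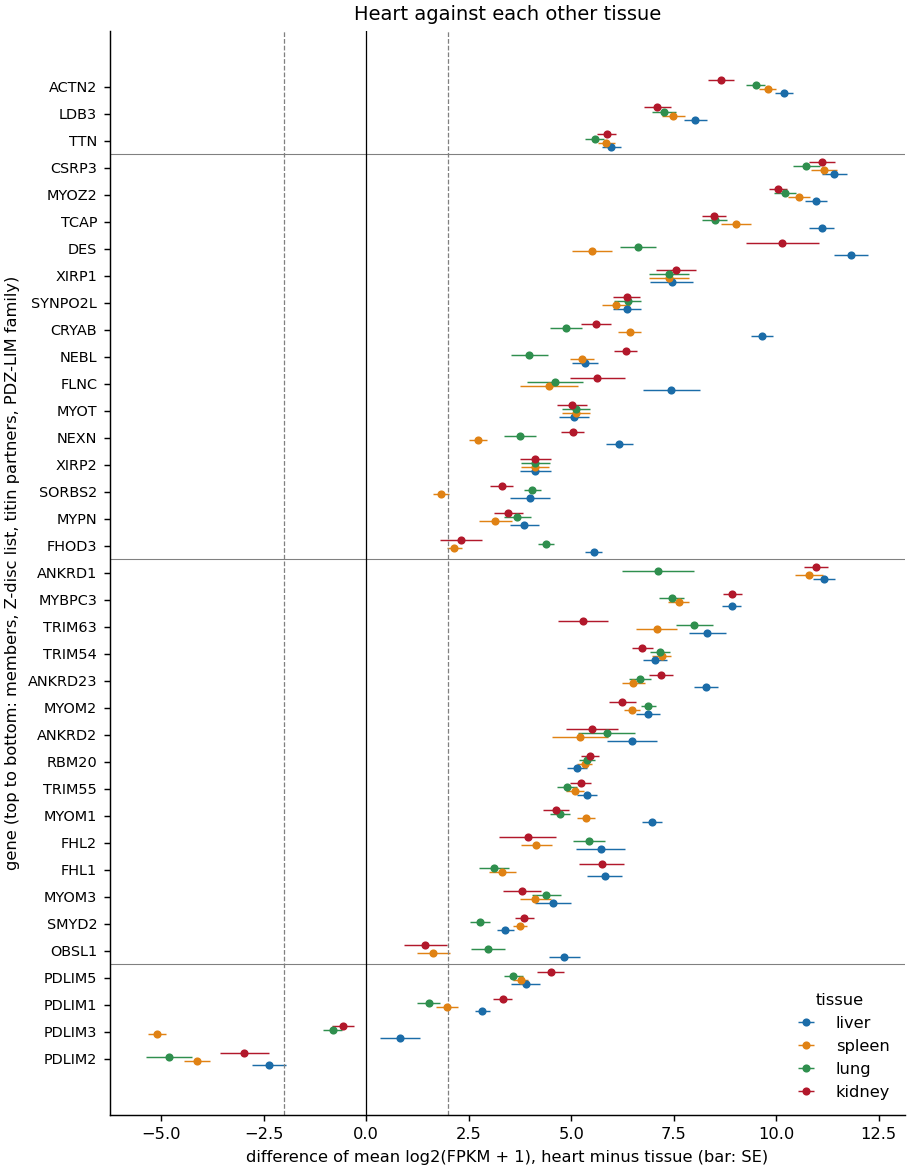
Difference of mean log2(FPKM + 1), heart minus tissue, for the 3 genes, the Z-disc list, the titin partners, and the PDZ-LIM family, with 1 point per tissue and bars for the SE. Dashed lines mark differences of 2 and -2. The Z-disc genes and titin partners all lie on the positive side, from 1.44 (OBSL1, kidney) to 11.83 (DES, liver), whereas PDLIM2 lies on the negative side and PDLIM3 at -5.10 for the spleen (its lung and kidney values change sign with the scaling).

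The genes whose log2(FPKM + 1) followed each of the 3 most closely over the 25 libraries are given as a description. The libraries of a tissue share their levels, so that most of each correlation is the step between the heart and the rest. Closest to TTN were ABRA (r = 0.997), CASQ2, the calcium store of the sarcoplasmic reticulum (r = 0.997), SBK3 (r = 0.997), and PDIA2 (r = 0.996). Closest to ACTN2 were RYR2, the calcium release channel of heart muscle (r = 0.994), TNNI3 (r = 0.993), and INHHA (r = 0.991). MYH7 and ADPRHL1 (r = 0.991 each) were also among the 5 closest to ACTN2. LDB3 was nearest to PRKAG3 (r = 0.991), with CAVIN4 and RYR2 (r = 0.989 each) among its 5 closest. Correlations above 0.95 were found with 174 genes for TTN, 160 for LDB3, and 159 for ACTN2. Among themselves the 3 genes correlated at 0.987 (TTN with LDB3 and with ACTN2) and 0.983 (LDB3 with ACTN2).

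Over the 20 libraries outside the heart, the 3 genes no longer followed each other closely, with r = 0.132 between TTN and LDB3, 0.252 between TTN and ACTN2, and 0.297 between LDB3 and ACTN2. The genes nearest to TTN in these libraries had their highest mean in the lung (r between 0.927 and 0.943 for the closest 5, none of which is paired with a name). Of the 5 nearest to ACTN2, LYPD6B (r = 0.933) was at 11.9 FPKM and MSS51 (r = 0.929) at 9.84 FPKM in the kidney in mean, and each was lower in every other tissue. The 5 nearest to LDB3 (r between 0.860 and 0.902) had no name either, and their highest mean was in the kidney.

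The nearest neighbours with an identifier in the reference annotation did not share one pattern. Those at most 1 gene away were highest in the heart in mean, and those further away were not. All were named through the study's tissue-specific DEGs. CCDC141, next to TTN, was at 12.1 ± 4.22 FPKM in the heart, with means of 6.09 in the spleen and 4.90 in the lung. OPN4, next to LDB3, was at 1.07 ± 0.62 FPKM in the heart and at 0 in all livers, spleens, and lungs. RYR2, with 1 gene between it and ACTN2, was at 40.0 ± 12.1 FPKM in the heart and at most 0.435 in mean elsewhere, highest in the kidney as ACTN2 was. EDARADD, with 2 genes between it and ACTN2, was highest in the lung (mean 12.9 FPKM, heart 0.396). HOXD1, with 13 genes between it and TTN, was highest in the kidney (mean 15.6 FPKM, heart 0.0). LOC100477293, with 11 genes between it and LDB3, was highest in the lung (mean 49.0 FPKM, heart 0.982).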

How the data were processed

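Whole-tissue mRNA of 5 giant pandas was sequenced, and per the study's methods the authors aligned reads to the genome ailMel1 with HISAT2, assembled further genes with Cufflinks, counted reads per gene with HTSeq, and deposited FPKM values of 25376 genes without normalization between libraries. Whether counting used strand is not given in the sources used here. All 25 deposited columns were used. The reads behind the FPKM steps were recovered for 24207 of the 24207 genes above 0, within 0.05 reads (tested on simulated data). A count of 0 allows 3 reads.

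For each pair of tissues limma (version 3.58.1 under R 4.3.3, variance trend on) was fitted to log2(FPKM + 1) of the 18701 genes whose mean passed 1 FPKM in any of the 5 tissues, with Benjamini-Hochberg adjustment. The fit was tested on simulated data. The main fit set 5 libraries against 5 without a term for the panda, although both tissues came from the same pandas. Its p-values rest on the spread between pandas within each tissue, not on that of differences within pandas. Exact permutation tests used all 252 relabelings. Ratios and figures were made with Python 3.11.15, scipy 1.17.1, and matplotlib 3.10.9. Libraries with the same number were taken to come from the same panda. Age, sex, and cause of death in the labels go with the number, but they are the same for pandas 3 and 4. For those pandas the labels leave the pairing to the number alone. After tissue means were removed, same-panda libraries correlated at 0.0600 to 0.521 (median 0.367), with 49 of 50 pairs above 0.1. Different pandas correlated at -0.469 to 0.377 (median -0.122), with 42 of 200 pairs above 0.1.

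Members, gene lists, and tests were chosen with earlier results of these data known. Names came from the study's table of tissue-specific DEGs (1778 identifiers). Named were the members, the 4 highest genes of each list in the heart, and every list gene not called in all 4 heart comparisons. The nearest genes by correlation and the nearest neighbours with an identifier were named too. Gene order was read from RefSeq annotation of the assembly ASM200744v3. Sequences were not used here.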

Additional observations from a re-analysis of the deposited data

Results flagged for a closer look

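A library stood apart when the gap between it and the next of the 5 was over 0.71 of their whole range (Dixon's criterion). Of 15 groups tested (3 genes in 5 tissues) 2 had such a library, and chance gives about 1 in 20 groups. LDB3 in the kidney of panda 4 was at 2.95 FPKM, against 0.988 in the next highest kidney and 0.433 in the lowest. Without kidney replicate 4, the heart exceeded the kidney by 7.33 on the log2 scale in LDB3. ACTN2 in the liver of panda 4 was at 0.443 FPKM, against 0.120 in the next highest liver. The same liver had the highest median of the 10 heart muscle markers among the livers, at 0.0424% of the heart level against 0.0266% for ACTN2. What part heart muscle RNA has in that value was not tested.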

How the results depend on the processing

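The heart exceeded the other tissues under every setting run. With TMM factors the log2 difference from the liver, spleen, lung, and kidney was 6.59, 6.54, 6.35, and 6.52 for TTN, and that from the spleen, lung, and kidney 8.34, 8.17, and 7.78 for LDB3. For ACTN2 it was 10.68, 10.60, and 10.41 from the liver, spleen, and lung. With a pseudocount of 0.1 the 4 values were 9.14, 8.32, 7.25, and 8.40 for TTN and 10.58, 8.76, 8.26, and 8.002 for LDB3, and the first 3 were 12.88, 11.28, and 10.61 for ACTN2. Leaving out each library gave 5.46 to 6.15 for TTN, 6.92 to 8.21 for LDB3, and 8.39 to 10.32 for ACTN2. Of the 18 comparisons outside the heart, 10 had an adjusted p below 0.05, against 4 with TMM factors, 3 with quantile normalization, and 4 of the 6 that passed a filter per pair of tissues (fewer genes tested). The number was 12 with a pseudocount of 0.1 and with limma-voom on recovered reads, 9 without a filter, 7 with all libraries in one fit, and 9 to 11 with each library left out. With the panda as a block the number was 11, and the pairing added TTN between the lung and kidney (adjusted p = 0.0399, limma) and changed no other call among the 18. After quantile normalization TTN and ACTN2 were higher in the liver than in the spleen, by 0.0741 (adjusted p = 0.263) and 0.0414 (adjusted p = 0.906, limma). The cause was not tested. For ACTN2 between the lung and kidney the adjusted p was 0.0652 with limma-voom, 0.0665 without a filter, and 0.0620 with a pseudocount of 0.1. With 0.1 FPKM added to both genes, a setting chosen after seeing the data, TTN over ACTN2 differed from the kidney by 2.55 in the lung and 2.14 in the spleen. With a replicate block (signs exchanged within pandas) the differences of 3.79 and 2.89 had an exact p of 0.0625, the smallest possible. Each number of list genes called kept within 1.5 times its value. Depth limits ACTN2 and LDB3 in the liver most, at 0 to 19 reads a library.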
